A study of Mus musculus with 8 samples.

Results

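Ccl2, Ccl7, Ccl8 and Ccl12 encode the monocyte chemoattractant proteins of the mouse, small secreted CC chemokines, and they made up 4 of the 21080 gene symbols measured. They were taken by symbol, and the grouping was chosen by the coverage values of these 8 samples, so their levels and fold changes are given here as a description and carry no test. RNA-seq was performed on bone marrow-derived macrophages (BMDMs), which are macrophages grown from bone marrow precursors with M-CSF. The 8 samples formed 4 groups of 2. WT BMDMs came from LysM-Cre littermates that kept intact Nudt21, and Nudt21-cKO BMDMs came from Nudt21 fl/fl LysM-Cre mice, in which Cre recombinase made by myeloid cells removes floxed exons of Nudt21. All mice were on the C57BL/6 background and all of them carried LysM-Cre, while their age is not given in the sources used here. Each genotype was taken at 0 h and at 4 h of the IFNγ/LPS treatment, in which IFNγ is given overnight before LPS. Although the labels name the treatment for every sample, the study's methods describe cells sequenced with it and cells sequenced without it, and the 0 h samples were read as the latter. Gbp2b, an interferon-induced guanylate-binding protein gene, was listed at 0 in all 4 samples at 0 h and lay at 663 to 1219 at 4 h. Each sample pooled BMDMs of 2 mice, and the 2 samples of a group therefore show the spread between pools.

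Ccl2, Ccl7 and Ccl12 are classical ligands of Ccr2, the receptor through which monocytes leave the bone marrow and enter inflamed tissue. Ccl7 also binds Ccr1 and Ccr3, and the mouse Ccl8 protein is best known as a ligand of Ccr8. Macrophages transcribe these genes after LPS has engaged Tlr4, partly through NF-κB and partly through interferon signalling, and their short mRNAs are open to rapid decay. Nudt21 encodes the 25-kDa subunit of cleavage factor Im, which binds UGUA in nascent transcripts and takes part in the choice of the polyadenylation site.

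The deposited value for a gene was its mean read coverage per base, which is a level per length and was not scaled between samples. Summed over all genes, it came to between 14950347 and 17954882 in a sample. The targeted gene, Nudt21, had a coverage at 0 h of 718 and 641 in WT BMDMs and of 158 and 172 in Nudt21-cKO BMDMs. At 4 h it was at 547 and 575 in WT and at 142 and 115 in Nudt21-cKO BMDMs, so the groups did not overlap at either time. The log2 fold change was -2.04 (SE 0.13) at 0 h and -2.13 (SE 0.16) at 4 h, with Benjamini-Hochberg adjusted p-values of 0.0462 and 0.0445 from limma. All 7 macrophage markers were above 0 in every sample.

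The 4 genes lie on the plus strand of chromosome 11 within 81.2 kb (GRCm38), in the order Ccl2, Ccl7, Ccl12 and Ccl8. Ccl2 spans chr11:82035571-82037453 and Ccl7 spans chr11:82045712-82047525. Ccl12 spans chr11:82101845-82103400 and Ccl8 spans chr11:82115185-82116799. Ccl11, an eosinophil chemokine gene that lies between Ccl7 and Ccl12, was listed at 0 in all 8 samples. Each of the 4 genes has 3 exons in the GENCODE transcript, and the longest stretch that any pair of their transcripts shares is 23 bases, between Ccl2 and Ccl7, which is shorter than a sequencing read.

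UGUA was searched on the sense strand of each 3′UTR, because Nudt21 binds these letters. It occurs 3 times in the 275 bases of the Ccl2 3′UTR and 6 times in the 435 bases of Ccl7, but once in the 165 bases of Ccl8 and not in the 167 bases of Ccl12. Among annotated mouse 3′UTRs within 10% of the same length, 17.7% held at least as many as Ccl2 and 5.51% at least as many as Ccl7, 49.7% held UGUA at least once at the length of Ccl8, and 49.4% held none at the length of Ccl12. The copy nearest to the 3′ end of each transcript that holds one is shown with up to 10 bases on either side, with UGUA in capitals. In Ccl2 it begins at base 267 of the 3′UTR (chr11:82037445-82037448), in Ccl7 at base 419 (chr11:82047509-82047512) and in Ccl8 at base 161 (chr11:82116795-82116798). From its last base to the transcript end there are only 5 bases in Ccl2, 13 in Ccl7 and 1 in Ccl8. Which copies Nudt21 binds was not tested.
Ccl2: auauuauuuuUGUAcacca
Ccl7: ucauauaaaaUGUAuuuuugcaca
Ccl8: gauuugcaaaUGUAa

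AUUUA, the core of AU-rich elements that recruit mRNA decay proteins, was distributed otherwise. It occurs 5 times in the 3′UTR of Ccl12, a number that 0.145% of 3′UTRs within 10% of its length reached. Ccl7 has 2 copies and Ccl2 has 1, numbers that 18.2% and 34.8% of 3′UTRs of like length reached, and Ccl8 has 0, as did 77.7%. Ccl2 and Ccl12 were picked for display because they parted in level between the genotypes. Ccl8, with 0 copies, was also lower in Nudt21-cKO BMDMs at 4 h, and Ccl7, with 2, was higher. A link between copies and levels was not tested. For Ccl2 and Ccl12 the first 30-base stretch with the most copies is shown with AUUUA in capitals. It runs from base 15 to 44 of the 3′UTR in Ccl2 and from base 92 to 121 in Ccl12.
Ccl2: ugaugccuuaauuaauauuaaacuuAUUUA
Ccl12: AUUUAaacaaacuugcuuaaauaauAUUUA

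Promoter sequences (RefSeq, GRCm38.p6, 250 bases before to 50 after the start) were at hand for 2 of the 4 genes, Ccl12 and Ccl8. Both hold TATAAAA, the letters of a TATA box, on the sense strand, which 5.48% of all 32851 promoters hold on either strand. It begins 31 bases before the start of Ccl12 and 32 bases before that of Ccl8 and is shown in capitals because both genes share it.
Ccl12 (chr11:82101806-82101828, plus strand): ttgtgtctTATAAAAgtcagatg
Ccl8 (chr11:82115145-82115167, plus strand): ctgctcccTATAAAAggcagatt
The interferon-stimulated response element, the gamma-activated sequence (TTCNNNGAA) and the κB site, each searched as a consensus, were not found in these 2 windows on either strand. They are held by 3.44%, 8.3% and 1.47% of all promoters.

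At 4 h of IFNγ/LPS, the loss of Nudt21 went with higher Ccl2 and Ccl7 and with lower Ccl12 and Ccl8. On the deposited scale, the first pair along the chromosome was thus higher and the second pair was lower. With each sample centred on its median, the log2 fold change of Ccl7 was only 0.38. Ccl2, the main ligand of Ccr2, was at 2992 and 3256 in WT BMDMs and at 12778 and 13773 in Nudt21-cKO BMDMs. The means were 3124 ± 187 (SD, n = 2) and 13275 ± 704 (SD, n = 2), and Ccl2 was 4.25-fold higher, a log2 fold change of 2.09 (SE 0.12). Both Nudt21-cKO samples stood far above both WT samples, and the gap was many times the distance between samples of a group. Ccl7 was at 1413 and 1941 in WT and at 2712 and 2739 in Nudt21-cKO BMDMs. Its groups did not overlap either, but the WT samples lay apart from each other, and the log2 fold change was 0.72 (SE 0.21), or 1.65-fold.

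Ccl12, which in the mouse shares the role of Ccl2 as a Ccr2 ligand, was at 3210 and 3098 in WT BMDMs and at 1175 and 997 in Nudt21-cKO BMDMs. This was 2.91-fold lower, with a log2 fold change of -1.54 (SE 0.14). Ccl8 was at 817 and 833 in WT and at 221 and 233 in Nudt21-cKO BMDMs, 3.64-fold lower, with a log2 fold change of -1.86 (SE 0.10). For both genes the samples of a group lay close together and the groups did not overlap.

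**Figure D1:**
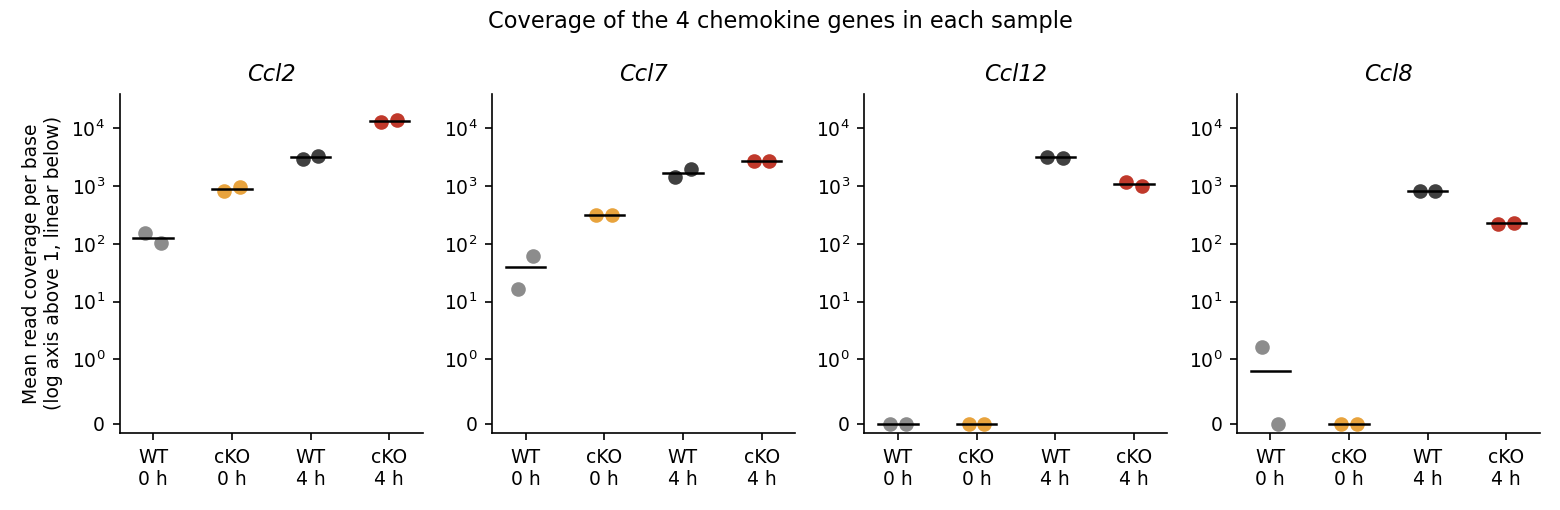
Mean read coverage per base of Ccl2, Ccl7, Ccl12 and Ccl8 in the 8 samples, on an axis that is logarithmic above 1 and linear below. Points are samples and bars are group means of 2 samples. At 4 h Ccl2 lies between 12778 and 13773 in cKO against 2992 and 3256 in WT, whereas Ccl12 and Ccl8 lie lower in cKO than in WT and at or near 0 at 0 h.

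By the rule used for all genes, a fold change above 1.5 with an unadjusted p under 0.05, 2 of the 4 genes were higher and 2 were lower at 4 h, beside 20.8% and 4.17% of the 14950 genes tested. The groups stood apart upward for 2 of the 4 and downward for the other 2, beside 51.1% and 14.9% of all genes. Nothing is read from these shares, since the genes were chosen with this contrast known. Over all genes tested at 4 h the log2 fold changes had a median of 0.31, and the values were therefore also computed with every sample centred on its own median. Centred in this way, Ccl2 was at 1.75, Ccl7 at 0.38, Ccl12 at -1.88 and Ccl8 at -2.20. No direction changed, but Ccl7 no longer exceeded 1.5-fold. The Ccl7 value also rested on single libraries, since it was 0.49 without WT replicate 1 and 0.95 without WT replicate 2. Without a Nudt21-cKO sample it was 0.73 and 0.71. The count of genes higher at 4 h was 1, without Ccl7, in these 2 fits and in the fit without WT replicate 1, and 2 in the fit without WT replicate 2. With single samples left out in the same way, the log2 fold changes ranged over 2.03 to 2.15 for Ccl2, -1.66 to -1.42 for Ccl12 and -1.90 to -1.82 for Ccl8.

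At 0 h, only Ccl2 and Ccl7 were measurable in both genotypes, and both were higher in Nudt21-cKO BMDMs. Ccl2 was at 152 and 105 in WT and at 831 and 973 in Nudt21-cKO BMDMs. The groups were well separated, with a log2 fold change of 2.83 (SE 0.25), or 7.12-fold. Ccl7 was at 16.6 and 61.8 in WT and at 312 and 313 in Nudt21-cKO BMDMs. The Nudt21-cKO samples were nearly equal, and the ratio between the WT samples was wider than in any other group for this gene.

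The log2 fold change of Ccl7 at 0 h was 3.28 (SE 0.77), or 9.72-fold, and the WT sample that was left in decided its size. Without WT replicate 1 it was 2.34 and without WT replicate 2 it was 4.23. Without either Nudt21-cKO sample it was 3.28. Ccl12 was listed at 0 in all 4 samples and Ccl8 in 3 of 4, with 1.63 in WT replicate 1, and both stayed under the minimum mean coverage of 0.5 needed for the fit over WT and Nudt21-cKO at 0 h. By the same rule 2 of the 2 genes fitted were counted as higher, beside 8.99% of the 16251 genes tested as higher and 5.61% as lower, and both had groups that stood apart upward, beside 36.1% upward and 20.9% downward. As at 4 h, nothing is read from these shares. Ccl7 did not pass the rule when either Nudt21-cKO sample was left out. Without WT replicate 2, Ccl8 entered the fit only through its 1.63 in WT replicate 1, so no call is given for it. The median of all genes was 0.10 here, and centring left Ccl2 at 2.74 and Ccl7 at 3.19.

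**Figure D2:**
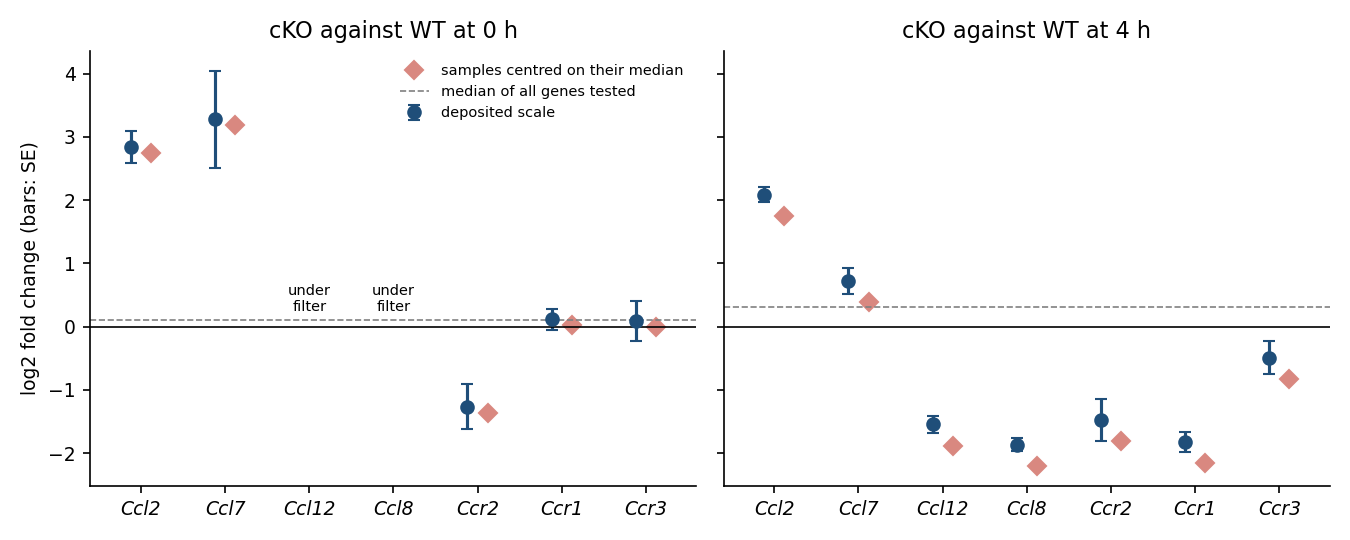
Log2 fold change of Nudt21-cKO against WT for the 4 chemokine genes and 3 receptor genes at 0 h (left) and 4 h (right), n = 2 per group. Circles with SE are on the deposited scale, diamonds are after centring each sample on its median, and the dashed line is the median of all genes tested. Ccl2 and Ccl7 lie above 0 and Ccl12, Ccl8 and the receptor genes below 0 at 4 h, and centring takes Ccl7 from 0.72 to 0.38.

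All 4 genes stood at higher levels at 4 h than at 0 h in both genotypes. In WT BMDMs, Ccl2 went from 152 and 105 to 2992 and 3256, a log2 fold change of 4.63 (SE 0.25), or 24.7-fold. In Nudt21-cKO BMDMs the log2 fold change of Ccl2 was 3.88 (SE 0.13), or 14.8-fold, from a higher starting level. The log2 fold change of Ccl7 was 5.69 (SE 0.79) in WT and 3.13 (SE 0.08) in Nudt21-cKO BMDMs, which is 51.5-fold and 8.72-fold. After centring each sample on its median these values were 6.08 in WT and 5.09 in Nudt21-cKO BMDMs for Ccl2, and 7.14 and 4.33 for Ccl7. On the deposited scale the WT value of Ccl7 was 4.74 without WT replicate 1 at 0 h and 6.63 without WT replicate 2.

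No fold is given for Ccl12 and Ccl8 across time, because libraries at 0 h are listed at 0. Their levels went from 0 to a mean of 3154 and from at most 1.63 to a mean of 825 in WT BMDMs, and from 0 to means of 1086 and 227 in Nudt21-cKO BMDMs. No count of these genes past a test is given across time, because Ccl12 and Ccl8 passed the minimum coverage only through the 4 h samples. By the rule for this contrast, a fold change above 1.5 with an adjusted p under 0.05, 11.3% of 16002 genes were higher and 52.3% lower in WT BMDMs, and 13.3% of 16223 genes were higher and 51.5% lower in Nudt21-cKO BMDMs. The log2 fold changes over all genes had medians of -1.28 and -1.05.

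The genotype effects on Ccl2 and Ccl7 were also set against each other between the times. The difference of the log2 fold changes, 4 h minus 0 h, was -0.75 (SE 0.29) for Ccl2 and -2.56 (SE 0.87) for Ccl7, beside a median of 0.20 over all genes. Over the 16284 genes tested, 2.28% had a larger and 0.761% a smaller value at 4 h by an adjusted p under 0.05. The values of Ccl2 and Ccl7 are a description with no test, and no difference between the times is claimed for either gene. The Ccl7 difference was -1.62 without WT replicate 1 at 0 h and -3.51 without WT replicate 2. For Ccl12 and Ccl8 no such difference can be stated from a time at which they are listed at 0.

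The order of the 4 genes by coverage changed with genotype. In WT BMDMs at 4 h, Ccl12 (3098 to 3210) and Ccl2 (2992 to 3256) overlapped at the top, followed by Ccl7 and then Ccl8. In Nudt21-cKO BMDMs at 4 h, Ccl2 came before Ccl7, Ccl7 before Ccl12 and Ccl12 before Ccl8, and no neighbours in this order overlapped. At 0 h Ccl2 was above Ccl7 in every sample.

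Shares within the sum of the 4 genes do not change when a whole sample is multiplied by a common factor. Quantile normalization, which moves genes unequally, can change them. At 0 h the sum was 170 and 167 for WT BMDMs and 1143 and 1286 for Nudt21-cKO BMDMs. It reached 8432 and 9128 for WT and 16885 and 17742 for Nudt21-cKO BMDMs after 4 h. Ccl2 made up 35.5% and 35.7% of the sum in WT BMDMs at 4 h and 75.7% and 77.6% in Nudt21-cKO BMDMs, so the groups stood far apart. Ccl12 made up 38.1% and 33.9% in WT and 6.96% and 5.62% in Nudt21-cKO BMDMs. Ccl8 made up 9.69% and 9.12% in WT and 1.31% in each Nudt21-cKO sample.

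Ccl7 took 16.8% and 21.3% of the sum in WT and 16.1% and 15.4% in Nudt21-cKO BMDMs at 4 h, and the gap between these groups was smaller than the distance between the WT samples. The number of Ccl2 coverage units per unit of Ccl12 was 0.932 and 1.05 in WT and 10.9 and 13.8 in Nudt21-cKO BMDMs. The same ratio of Ccl8 to Ccl12 was 0.255 and 0.269 in WT and 0.188 and 0.234 in Nudt21-cKO BMDMs, and that of Ccl7 to Ccl2 was 0.472 and 0.596 in WT and 0.212 and 0.199 in Nudt21-cKO BMDMs. Ccl2 thus parted from Ccl12 by far more than Ccl8 did. At 0 h the Ccl2 share was 89.3% and 62.9% in WT and 72.7% and 75.7% in Nudt21-cKO BMDMs, and these groups overlapped. Ranked among all genes of a sample at 0 h, Ccl2 came at place 8124 and 8838 for WT and 3288 and 3058 for Nudt21-cKO BMDMs. After 4 h the places were 815 and 766 for WT and 208 and 196 for Nudt21-cKO BMDMs.

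**Figure D3:**
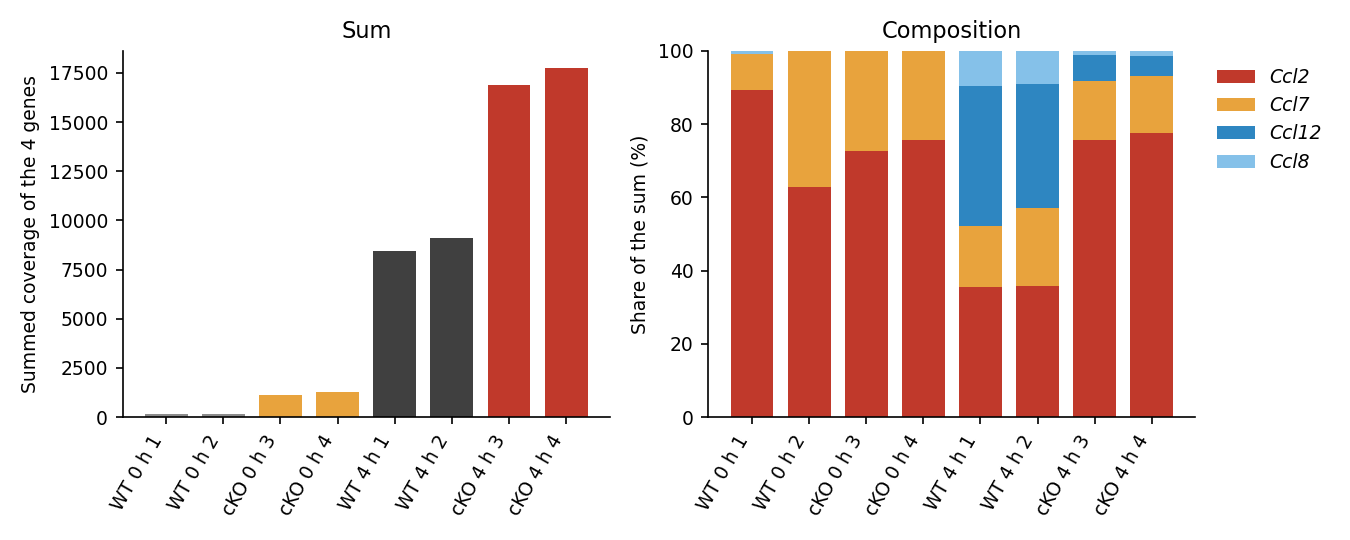
Summed coverage of the 4 chemokine genes per sample (left) and the percentage of that sum from each gene (right). Each bar is 1 sample. At 4 h Ccl2 accounts for 75.7% and 77.6% of the sum in cKO but for 35.5% and 35.7% in WT, where Ccl12 holds 38.1% and 33.9%.

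The receptor genes Ccr1 and Ccr2 were lower in Nudt21-cKO BMDMs at 4 h. Of the 6 receptor and scavenger genes described here, Ccr8 is not among the symbols, Ackr1 and Ackr2 were listed at 0 in all samples, and 3 were tested. At 4 h, 2 of these 3 were lower by the rule above and none higher, beside 4.17% of all genes lower and 20.8% higher, and their median log2 fold change was -1.47 beside 0.31 over all genes. Ccr1, which binds Ccl7 beside other ligands, was at 888 and 1006 in WT and at 291 and 245 in Nudt21-cKO BMDMs, a log2 fold change of -1.82 (SE 0.16, limma adjusted p 0.0475). Ccr1 thus fell at 4 h, although its adjusted p was 0.0657 with equal summed coverage and 0.0661 in limma without the filter on low values.

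Ccr2, the receptor of Ccl2, Ccl7 and Ccl12, was at 104 and 83.6 in WT and at 43.2 and 26.1 in Nudt21-cKO BMDMs. The log2 fold change was -1.47 (SE 0.33), which passed the rule on the unadjusted p but had a limma adjusted p of 0.0950, and it missed the rule without either WT sample (-1.31 and -1.63). Without a Nudt21-cKO sample it was -1.84 and -1.11. Ccr3, at 63.8 and 83.7 in WT and 44.3 and 60.9 in Nudt21-cKO BMDMs, did not pass (-0.49, limma adjusted p 0.292), although it did after centring (-0.83). With 3 samples in the fit no gene of the table had an adjusted p under 0.05 at 4 h, while the log2 fold change was -1.95 to -1.70 for Ccr1 and -2.28 to -1.98 for Nudt21.

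At 0 h, 1 of the 3 receptor genes was lower by the rule and none higher, beside 5.61% and 8.99% of all genes. Ccr2 was at 308 and 295 in WT and at 93.6 and 168 in Nudt21-cKO BMDMs, a log2 fold change of -1.27 (SE 0.35, limma adjusted p 0.205), and it missed the rule without either WT sample (-1.24 and -1.30). Without a Nudt21-cKO sample it was -0.84 and -1.69. Ccr1 had a log2 fold change of 0.12 and Ccr3 of 0.09, and neither passed. The difference between the times was tested. It was -1.94 for Ccr1 (SE 0.23, limma adjusted p 0.0275) and -0.21 for Ccr2 (limma adjusted p 0.859). The Ccr1 call was lost with the replicate number as a block (limma adjusted p 0.110), with quantile normalization (-1.80, limma adjusted p 0.0541) and without 6 of the 8 samples, while with single samples left out the difference lay between -2.09 and -1.78. Over time on the deposited scale, Ccr2 fell in WT (-1.69, limma adjusted p 0.00695) and in Nudt21-cKO BMDMs (-1.90, limma adjusted p 0.0389), but after centring it was at -0.24 and -0.69 and passed in neither. The WT call was lost without either 0 h sample (-1.66 and -1.72, limma adjusted p 0.0661 and 0.0631). The Nudt21-cKO call was lost without any 1 of its 4 samples (-2.32 to -1.48, limma adjusted p 0.0902 to 0.159) and with the replicate number as a block (limma adjusted p 0.106). Ccr1 was at 0.07 over time in WT (limma adjusted p 0.694) and fell in Nudt21-cKO BMDMs (-1.87, limma adjusted p 0.00525), where after centring it was at -0.66 and did not pass, while in WT it was at 1.52 after centring and passed as higher.

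**Figure D4:**
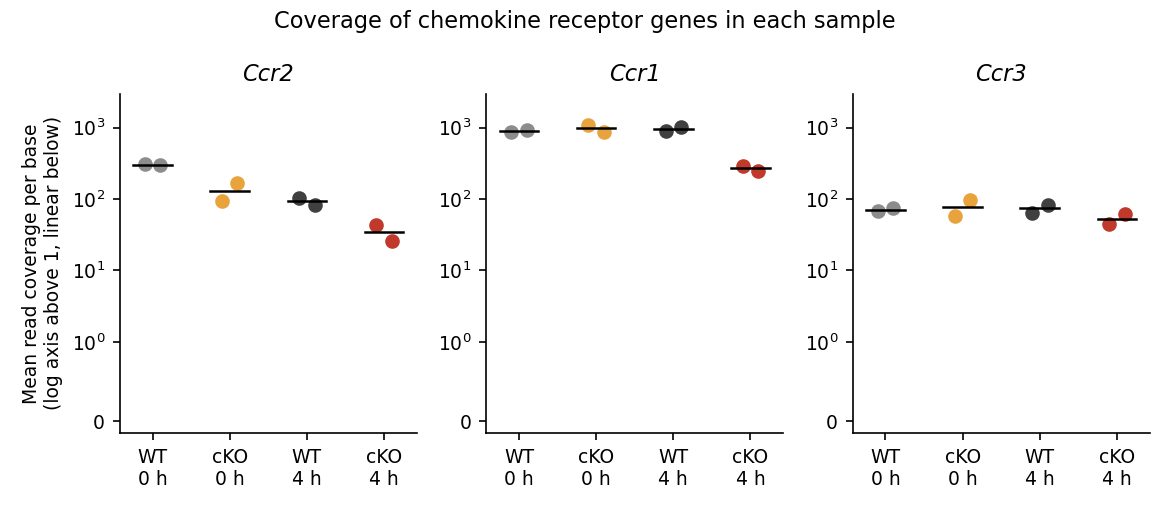
Mean read coverage per base of Ccr2, Ccr1 and Ccr3 in the 8 samples, on an axis that is logarithmic above 1 and linear below, with points for samples and bars for means of 2 samples. At 4 h the cKO samples of Ccr2 (43.2 and 26.1) and Ccr1 (291 and 245) lie below the WT samples, and the groups of Ccr1 and Ccr3 overlap at 0 h.

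Of 14 other CC chemokine genes listed, 10 were tested at 4 h, with 1 higher and none lower, beside 20.8% and 4.17% of all genes. Their median log2 fold change was 0.02, beside 0.31 over all genes. The gene called was Ccl24, an eosinophil chemokine, at 1.40 (limma adjusted p 0.127), and it was not called after centring, when Ccl9 was called lower (-0.74). Ccl3 lay at 348701 and 218921 in WT and at 174333 and 189712 in Nudt21-cKO BMDMs at 4 h, far above the 4 monocyte chemokine genes per length. At 0 h 1 of 10 was higher, Ccl6 at 0.73 (limma adjusted p 0.114), and none lower, beside 8.99% and 5.61% of all genes.

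Of 18 genes that carry the LPS signal to NF-κB, 2 were higher and 1 lower at 4 h, beside 20.8% and 4.17% of all genes, with a median log2 fold change of 0.11 beside 0.31. Ikbkg, the regulatory subunit of the IκB kinase, was at 1.48 (limma adjusted p 0.0438), Traf6, the ubiquitin ligase that activates it, at 0.65 (limma adjusted p 0.0678) and Ticam2, the adaptor known as TRAM, at -0.68 (limma adjusted p 0.0946). Centring left 1 higher and 4 lower. At 0 h 1 was higher, Ikbkg at 0.78, and 1 lower, Nfkbiz at -0.74, with limma adjusted p-values of 0.152 and 0.124, beside 8.99% and 5.61% of all genes.

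Of 14 interferon signalling genes tested at 4 h, 2 were higher and none lower, beside 20.8% and 4.17% of all genes, with a median log2 fold change of 0.21 beside 0.31. Ifnb1, which encodes interferon β, was at 1631 and 1403 in WT and at 3852 and 4851 in Nudt21-cKO BMDMs, a log2 fold change of 1.52 (limma adjusted p 0.0572). Irf7, which encodes a transcription factor of the interferon response, was at 0.91 (limma adjusted p 0.0542). Centring left 1 higher and 3 lower, and Irf7, at 0.58, was no longer called. At 0 h 13 were tested, none was higher and 1 was lower, Ifngr1 at -0.66 (limma adjusted p 0.122), beside 8.99% higher and 5.61% lower of all genes.

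Of 8 genes of cytokine mRNA decay, 3 were higher and none lower at 4 h, beside 20.8% and 4.17% of all genes, with a median log2 fold change of 0.53 beside 0.31. Rc3h1, which encodes the RNA-binding protein Roquin, was at 1.15 (limma adjusted p 0.0489), Zfp36l2, of the AUUUA-binding tristetraprolin family, at 1.32 (limma adjusted p 0.0984) and Khsrp, another AU-rich element-binding protein gene, at 0.80 (limma adjusted p 0.0752). Of these, only Rc3h1 was called after centring. At 0 h 2 were higher, Rc3h1 at 1.42 and Elavl1 at 0.60, with limma adjusted p-values of 0.0934 and 0.171, and none was lower, beside 8.99% higher and 5.61% lower of all genes. After centring Elavl1, at 0.51, was no longer called.

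The genes whose profile over the 8 samples was most like that of each chemokine gene were found by the root mean square difference of log2 values after each gene was centred on its mean, among 16284 genes. Nearest to Ccl2 were 4930579C12Rik (0.50), the cystine transporter gene Slc7a11 (0.50) and Gm12216 (0.55), and Ccl7 came at rank 10 (0.80). Nearest to Ccl7 were Slc7a11 (0.66), Pgf (0.67) and Vcan (0.70), and Ccl2 came at rank 4. The coverage of Slc7a11 at 0 h was 69.7 and 108 for WT and 454 and 535 for Nudt21-cKO BMDMs. After 4 h it was 3738 and 3400 for WT and 11665 and 13343 for Nudt21-cKO BMDMs.

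Nearest to Ccl12 were Gbp2b (0.63), the prostaglandin synthase gene Ptgs2 (0.70) and Serpina3f (0.89), and nearest to Ccl8 were Gm16015 (1.25), the hepcidin gene Hamp (1.26) and Il27 (1.27). At 4 h the genotypes overlapped for Ptgs2, Hamp and Il27, so a near profile here need not hold a genotype difference. For Gbp2b, Serpina3f and Gm16015 both Nudt21-cKO samples lay below both WT samples, as 14.9% of all genes did. Ptgs2 was at 111209 and 85893 in WT and at 94803 and 91854 in Nudt21-cKO BMDMs. Gbp2b was at 1005 and 1219 in WT and at 663 and 745 in Nudt21-cKO BMDMs. Ccl8 came at rank 26 for Ccl12 and Ccl12 at rank 71 for Ccl8, while Ccl2 lay 5.22 from Ccl12 and 4.16 from Ccl8. Where libraries are listed at 0, these distances depend on the pseudocount of 0.1.

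Markers of other cells were summed in each sample, because RNA from bulk samples does not tell fewer cells of a type from less RNA per cell. At 4 h the 4 monocyte markers summed to 2432 to 3076 in WT and to 3852 to 3966 in Nudt21-cKO BMDMs, and at 0 h to 895 to 960 and 908 to 1046. All 4 monocyte markers were above 0 in every sample. The 7 macrophage markers summed to 50581 to 55388 in WT and 61847 to 64858 in Nudt21-cKO BMDMs at 4 h, and to 118243 to 126917 and 121904 to 130748 at 0 h. Cd68, which was at 12362 and 13101 in WT and 24827 and 28817 in Nudt21-cKO BMDMs at 4 h, set this direction, and the 6 markers without it summed to 38219 to 42287 and 36041 to 37020 at 4 h and to 72739 to 84010 and 52490 to 57351 at 0 h. By the genotype rule 2 of the 7 were higher at 4 h (Cd68 and Lyz2) and 0 were lower, beside 20.8% and 4.17% of all genes, and after centring 1 was higher and 2 were lower. At 0 h 1 was higher (Cd68) and 2 were lower (Adgre1 and Fcgr1), beside 8.99% and 5.61%, and after centring 1 was higher and 3 were lower. The 4 fibroblast markers, of cells that also make Ccl2 and Ccl7, summed to 80.4 to 186 in WT and 143 to 206 in Nudt21-cKO BMDMs at 0 h, and to 15.2 to 90.5 and 77.8 to 112 at 4 h. Of these, 1 was higher by the rule at 0 h, also after centring, which was Pdgfra at 1.32 and 1.02 in WT and 2.75 and 2.73 in Nudt21-cKO BMDMs, and none was called at 4 h. The 5 neutrophil markers summed to 18572 to 19494 in WT and 21167 to 28212 in Nudt21-cKO BMDMs at 0 h, where the groups stood apart, and to 14919 to 17864 and 17078 to 19867 at 4 h, where they overlapped. The 3 B cell markers summed to 125 to 143 in WT and 67.9 to 73.5 in Nudt21-cKO BMDMs at 0 h, and at 4 h to at least 10.5 in WT and at most 7.94 in Nudt21-cKO BMDMs. The 4 dendritic cell markers summed to 9.33 to 9.69 and 9.65 to 29.0 at 0 h and to 156 to 261 and 206 to 217 at 4 h. Of these, 1 was higher by the rule at 4 h (Zbtb46, at 6.59 and 7.08 in WT and 16.6 and 23.9 in Nudt21-cKO BMDMs) and 1 was lower (Xcr1, at 17.5 and 52.4 in WT and 4.64 and 2.32 in Nudt21-cKO BMDMs), also after centring, and none of the 3 tested was called at 0 h. The mast cell marker Cpa3 was at 6.74 and 6.31 in WT and at 4.19 and 0.766 in Nudt21-cKO BMDMs at 0 h, and at 2.27 and 5.97 and at 1.93 and 1.96 at 4 h. The 3 T cell markers summed to at most 3.86 in any sample. The part of these cells in the values of the chemokine genes was not tested.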

How the data were processed

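RNA of the 8 samples was sequenced in paired-end mode, and the authors aligned reads with HISAT2 (2.2.1) to mm10/GRCm38 and ran StringTie (2.1.7), per the labels' processing notes. The deposited signal is a gene's read coverage averaged over its bases, not scaled between samples, in 1 table per time. The deposited tables also hold the authors' own fold changes and p-values, which were not used. Read counts per gene are not given, so no counting interval can be stated. Of 134 housekeeping genes checked, 0 were listed at 0 in any sample.

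Values were analysed as log2(coverage + 0.1) in limma (3.58.1, R 4.3.3), for genes with a mean of at least 0.5 in the samples compared, with 2 samples per group and Benjamini-Hochberg adjustment over all genes tested. Fold changes on this scale understate the change of low genes. The genotype rule was a fold change above 1.5 with an unadjusted p under 0.05, as in the study's methods, and the rule across time used the adjusted p. The 0 h and 4 h values come from separate tables and are compared on the unscaled deposited scale. The script was tested on simulated data. The members and gene lists were chosen with earlier results of these data known. Genes were named by rule: the 4 members, the listed receptors (1 item of the list is not reported here), up to 2 highest and 2 lowest called at 4 h per list, members needed to explain a count of 5 or fewer, and the 3 nearest profiles. Genes named beyond this rule (Ccl3, Ccl9, Gbp2b and Cd68, as context) were chosen after their values were seen. Transcripts came from GENCODE and promoters from RefSeq.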

Additional observations from a re-analysis of the deposited data

Results flagged for a closer look

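The effect of the Nudt21-cKO genotype on 2 of the genes named differed between 0 h and 4 h by an interaction term in limma. For Ccr1 the log2 fold change was 0.12 at 0 h and -1.82 at 4 h, a difference of -1.94 (SE 0.23, limma adjusted p 0.0275). For Tlr4, the LPS receptor gene, coverage at 0 h was 721 and 811 for WT and 1082 and 1135 for Nudt21-cKO BMDMs. After 4 h it was 136 and 154 for WT and 100 and 105 for Nudt21-cKO BMDMs. Its log2 fold change was 0.53 at 0 h and -0.50 at 4 h, a difference of -1.04 (SE 0.16, limma adjusted p 0.0482). The Ccr1 call was lost without 6 of the 8 samples and the Tlr4 call without any 1 of them, while the differences lay between -2.09 and -1.78 for Ccr1 and between -1.12 and -0.95 for Tlr4. With a replicate block both were lost (limma adjusted p 0.110 for Ccr1 and 0.160 for Tlr4), as was Ccr1 with quantile normalization (limma adjusted p 0.0541) and Tlr4 without the filter on low values (limma adjusted p 0.0551).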

How the results depend on the processing

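The directions of the 4 chemokine genes in the genotype contrasts held under every alternative run. With samples centred on their medians, scaled to equal summed coverage, quantile normalized or with all 8 samples in 1 fit, 1 rather than 2 of them was higher at 4 h, and 1 rather than 2 lower in the fit of all 8. At 4 h, 3112 genes were higher and 624 lower, against 1552 and 1480 with centring, 1941 and 1013 with equal summed coverage, and 1530 and 1476 with quantile normalization. Genes with an adjusted p under 0.05 at 4 h numbered 577, against 236, 198 and 274 with these scalings, 1306 with a pseudocount of 1, 207 without the filter and 4092 with all 8 samples. At 0 h the number was 167, against 92 with a pseudocount of 1 and 897 with all 8 samples. Across time in WT, 1814 genes were higher and 8374 lower, against 4949 and 3107 with centring and 3169 and 4012 with quantile normalization. In Nudt21-cKO BMDMs 2160 were higher and 8350 lower, against 5129 and 3480, and 3406 and 4717. For the difference between the times, 372 were higher and 124 lower, against 174 higher with centring, 210 higher with quantile normalization, and 15 higher and 16 lower with a replicate block. The replicate numbers of 0 h and 4 h samples are not stated to mark the same mice, and the difference between the 2 samples of a group correlated across genes between the times at 0.02 in each genotype, or at 0.169 in WT and 0.0801 in Nudt21-cKO BMDMs over genes with a geometric mean coverage of at least 20. With single samples left out, 1765 to 4000 genes were higher at 4 h, 478 to 862 were lower and 0 had an adjusted p under 0.05 at either time. Across time in WT, 1155 to 1447 were higher and 3510 to 7685 lower, and for the difference between the times 117 to 546 were higher and 67 to 146 lower. A group left with 1 sample was assumed to vary like the other groups in the fit. In limma without the filter on low values the adjusted p of Nudt21 was 0.0607 at 0 h and 0.0617 at 4 h, and with equal summed coverage it was 0.0577 at 4 h.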
